A study of Rattus norvegicus with 30 samples.

Results

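The peripheral myelin structural genes followed here are Mbp, Pmp22, Pmp2, Mag, Prx, Mal, Cnp and Gjb1, 8 genes of the 35287 gene names on a rat whole-genome array. They were taken as every probe that carries one of these names on the array, which gave 1 probe a gene except for Mbp, with a main probe and a second, dimmer one. They were measured on 30 single-colour Agilent arrays of adult male Sprague-Dawley rats, 15 of the proximal stump of the sciatic nerve and 15 of the dorsal root ganglia (DRG), with 3 arrays in each tissue at 0, 1, 4, 7 and 14 d after a segment of the left sciatic nerve was cut out at mid-thigh. The 0 d groups are the controls of their tissue. No transgene, drug or second treatment is named in any group. The number of rats behind 1 array is not given in the sources used here, so the p-values measure the spread between arrays.

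A myelinating Schwann cell wraps its membrane in many turns around 1 axon and compacts most of it. MBP, PMP22 and the fatty acid binding protein PMP2 belong to compact myelin. MAG sits on the innermost wrap facing the axon, CNP and the gap junction protein connexin 32, encoded by Gjb1, lie in the non-compact channels, and periaxin, encoded by Prx, links the outer Schwann cell membrane to its basal lamina. MAL is a proteolipid that helps to carry lipids and proteins to myelin membranes. Where an axon is cut off from its cell body, Schwann cells take the myelin apart and return to an immature state, from which they can myelinate again. The nerve arrays here hold the proximal stump, which lies on the side of the cell bodies, and not the part cut off from them. Changes in several of these genes cause inherited demyelinating neuropathy.

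The values are normalized signals, the log2 intensity of a probe minus the 75th percentile of its own array. A difference of 1 is therefore 2-fold, and a signal below 0 is dimmer than that percentile. A gene was called where limma gave an adjusted p under 0.05 over all probes tested together with a fold change over 2. Signals are compared only within a probe, since probes differ in how brightly they bind. All 8 genes were well above background on all 30 arrays, and no spot was saturated.

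Of the member probes, 4 are shown because their genes mark the different time courses described below: Mag, which came back, Cnp, which stayed within 2-fold, and Prx and Gjb1, which were still low at 14 d. Each is 60 bases long and has at least 1 reading frame free of stop codons. In the rn4 rat genome used by the array's annotation they lie at chr1:85954956-85955015 on the minus strand (Mag), chr10:89524880-89524939 (Cnp), chr1:82597427-82597486 (Prx) and chrX:89455686-89455745 (Gjb1), the last 3 on the plus strand.
Mag probe: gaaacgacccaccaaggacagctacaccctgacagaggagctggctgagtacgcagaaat
Cnp probe: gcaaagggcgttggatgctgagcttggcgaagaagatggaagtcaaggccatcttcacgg
Prx probe: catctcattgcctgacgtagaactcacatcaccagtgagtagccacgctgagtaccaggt
Gjb1 probe: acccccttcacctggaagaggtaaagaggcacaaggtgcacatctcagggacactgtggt
The other members were read at chr2:93569454-93569513 (Pmp2), chr3:115167515-115167574 (Mal), chr10:49335537-49335596 (Pmp22) and, for Mbp, chr18:79044276-79046214 and chr18:79055910-79055969. The longer of these spans, 1939 bases, belongs to the second Mbp probe.

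The nerve arrays differed in the skeletal muscle they held, and a single array stood apart. The summed level of 6 skeletal muscle genes was 1060.5 in 0 d nerve replicate 1, against 62.0 and 89.3 in the other 0 d nerves. It was 63.9 to 176.7 at 1 d, 2.6 to 35.9 at 4 and 7 d and 41.0 to 140.1 at 14 d. At 4 and 7 d all 6 were called lower, beside 6.78% and 6.81% of all probes, and at 1 and 14 d none was. Without 0 d replicate 1 the member genes called lower in the nerve numbered 2, 6, 6 and 5 at 1, 4, 7 and 14 d. These counts were the same as with it. The muscle sums of the other 0 d nerves were also above those of 4 and 7 d. Leaving out 1 array does not remove this difference. The part of muscle in the changes was not tested. The 0 d nerves lay on 1 slide and were scanned on 1 day, and no slide held nerve arrays of more than 1 time point. Slide and time within the nerve therefore cannot be told apart. The 0 d arrays of both tissues had 26914 to 32586 probes well above background, and the later arrays 33049 to 35541. With another scaling, quantile normalization, the median change of all probes in the nerve went from between 0.11 and 0.16 to between -0.08 and 0.03 (log2).

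Before injury, all 8 genes were higher in the nerve than in the ganglia, and 7 were called, where 20% of 33796 probes were called higher. Mal differed most. Its 0 d signals were 5.24, 5.19 and 5.58 in the nerve and 2.95, 2.84 and 2.32 in the ganglia, a difference of 2.63 ± 0.19 (log2, SE of the fit; 6.19-fold, adjusted p = 1.59e-11). The other differences, as folds, were 4.57 for Gjb1, 4.08 for Pmp2, 3.45 for Prx, 3.4 for Mag, 2.83 for Mbp and 2.18 for Cnp. Pmp22 was 1.69-fold higher in the nerve (adjusted p = 1.41e-06), short of 2-fold. The nerve and ganglion arrays did not overlap at 0 d for any of the 8 genes. In whole tissue, fewer cells of a type and less RNA per cell cannot be told apart.

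**Figure D1:**
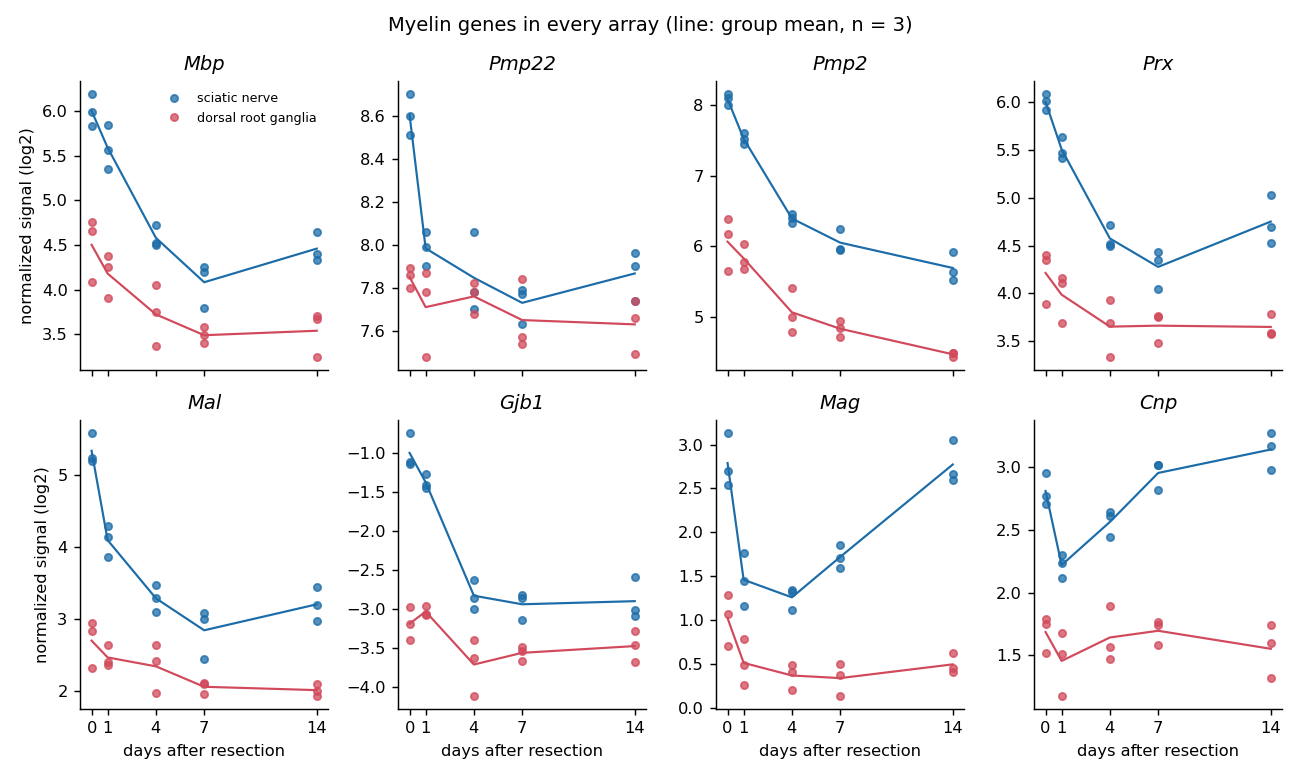
Normalized signal (log2, y axis, a separate range in each panel) of the 8 genes on each array against days after resection (x axis); points are arrays, lines join the means of 3 arrays, blue is sciatic nerve and red is dorsal root ganglia. In the nerve Mal, Pmp2, Mbp, Prx and Gjb1 fell past 2-fold and stayed there from 4 d on, Mag was back at its 0 d signals by 14 d, Pmp22 stayed below 0 d within 2-fold, and Cnp moved to either side by less than 2-fold.

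After resection 6 of the 8 myelin genes fell past 2-fold in the nerve on at least 1 day, and Pmp22 was lower within 2-fold. At 1 d only Mag and Mal of the 8 genes were called lower, at 4 and 7 d also Mbp, Pmp2, Prx and Gjb1, and at 14 d Mag was no longer among the 5 called. None of the 8 was called higher on any of these days by limma or by the methods' t-test, and at an unadjusted p under 0.05 only Cnp at 14 d was higher (0.33). Of all 35157 probes tested in the nerve, 3.43%, 6.78%, 6.81% and 5.46% were called lower at 1, 4, 7 and 14 d, and 18.6%, 15.9%, 18.1% and 14.3% higher. The probes lower numbered 1206, 2383, 2395 and 1919, against 2521, 2955, 3215 and 2424 with quantile normalization, and those higher 6553, 5589, 6365 and 5026 against 4275, 3857, 4051 and 2807. The median change of the 8 genes was -0.58, -1.48, -1.82 and -1.4 (log2) on these days, while the median over all probes was 0.11, 0.15, 0.15 and 0.16. All 4 comparisons used the same 3 arrays of 0 d.

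Mal, the membrane carrier, had the lowest 7 d value relative to its own 0 d level among the members. Its signal was 5.24, 5.19 and 5.58 on day 0, 4.14, 4.29 and 3.86 on day 1, 3.47, 3.10 and 3.30 on day 4, 3.01, 2.45 and 3.08 on day 7 and 2.97, 3.45 and 3.20 on day 14. No injured nerve overlapped with the controls on any day. The Mal signals of 0 and 1 d came from the scan at lower gain and those of 4, 7 and 14 d did not. The part of this switch in the change was not tested. Mal fell 2.37-fold by 1 d and 5.61-fold by 7 d (log2 change -2.49 ± 0.19, adjusted p = 5.64e-07), and stood at 22.8% of its 0 d level at 14 d.

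Pmp2, the lipid-binding protein of compact myelin, reached its lowest mean at the last day. The 0 d nerves gave 8.01, 8.10 and 8.16, and the later ones 7.52, 7.61 and 7.45 on day 1, 6.45, 6.33 and 6.40 on day 4, 6.25, 5.94 and 5.96 on day 7, and 5.52, 5.92 and 5.63 on day 14. All injured nerves were below all controls, and all 14 d nerves were below all 7 d nerves. The 1 d difference of -0.57 (adjusted p = 0.000818) was -0.04 with quantile normalization (adjusted p = 0.759). At 14 d Pmp2 was 5.3-fold lower than at 0 d (-2.41 ± 0.11, adjusted p = 3.67e-08). The step from 7 to 14 d was -0.36 ± 0.11 (adjusted p = 0.0543) and was not called.

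Mbp, whose protein holds the inner faces of the compact membrane together, had signals of 5.99, 5.83 and 6.19 on day 0 and 5.57, 5.85 and 5.35 on day 1, which overlapped. At 4 d they were 4.72, 4.50 and 4.52, at 7 d 4.25, 3.8 and 4.20, and at 14 d 4.33, 4.65 and 4.40, all below the controls. Mbp fell 2.68-fold by 4 d and 3.78-fold by 7 d (-1.92 ± 0.16, adjusted p = 8.94e-07). The second Mbp probe gave -1.59, -2.07 and -1.71 at 4, 7 and 14 d beside -1.42, -1.92 and -1.54 for the main one, and was also called on those 3 days.

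Prx and Gjb1, whose proteins lie outside compact myelin, were on the low side by 4 d as well. Prx gave 5.91, 6.08 and 6.01 on day 0, 5.47, 5.63 and 5.41 on day 1, 4.71, 4.49 and 4.52 on day 4, 4.43, 4.05 and 4.35 on day 7 and 4.69, 5.03 and 4.53 on day 14. Every injured nerve was below every control, and the change at 7 d was -1.73 ± 0.13 (3.31-fold lower, adjusted p = 6.15e-07). At 14 d Prx was 2.38-fold lower (-1.25 ± 0.13), a call that was lost in the authors' deposited log2 values (-0.99, adjusted p = 0.000192).

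Gjb1, the dimmest of the member probes, gave -1.11, -1.13 and -0.74 on day 0, -1.40, -1.27 and -1.44 on day 1, -2.63, -3.00 and -2.85 on day 4, -2.82, -3.14 and -2.85 on day 7, and -3.09, -2.59 and -3.01 on day 14. Its 1 d nerves lay just below the controls and its later ones far below. The change was -0.38 ± 0.16 at 1 d (adjusted p = 0.0513) and then -1.83, -1.94 and -1.9, called on each of these 3 days.

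Mag, the adhesion molecule of the innermost wrap, fell early and came back. The controls gave 2.70, 3.13 and 2.54, followed by 1.45, 1.77 and 1.16 on day 1, 1.34, 1.32 and 1.12 on day 4, 1.86, 1.59 and 1.71 on day 7, and 2.67, 3.05 and 2.60 on day 14. The nerves of 1, 4 and 7 d were all below the controls, and those of 14 d overlapped with them. Mag was 2.51-fold lower at 1 d (adjusted p = 6.32e-05) and 2.89-fold lower at 4 d (adjusted p = 1.75e-05), and its mean at 14 d was 98.8% of that at 0 d (change -0.02 ± 0.18, adjusted p = 0.943). Its call at 7 d (-1.07 ± 0.18) was close to the threshold and was lost with quantile normalization (-0.96), with normexp background correction (-0.97), with the percentile taken over detected probes (-1.0), in the authors' values (-0.96) and without 0 d replicate 2 (-0.9).

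Cnp, an enzyme of the cytoplasmic channels, was never called in the nerve. It gave 2.71, 2.77 and 2.95 on day 0, 2.30, 2.24 and 2.12 on day 1, 2.61, 2.44 and 2.64 on day 4, 3.02, 2.82 and 3.02 on day 7 and 3.17, 3.27 and 2.98 on day 14. The 1 d nerves were all below the controls and the 14 d nerves all above. The differences were -0.59 ± 0.1 at 1 d (adjusted p = 0.000352) and 0.33 ± 0.1 at 14 d (adjusted p = 0.0164), each under 2-fold.

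Pmp22, a tetraspan protein of compact myelin whose dosage matters in inherited neuropathy, also stayed within 2-fold. Its signals were 8.51, 8.60 and 8.70 on day 0, 7.99, 8.06 and 7.90 on day 1, 7.78, 7.70 and 8.06 on day 4, 7.79, 7.77 and 7.63 on day 7 and 7.96, 7.74 and 7.90 on day 14. All injured nerves were below all controls, with differences of -0.62, -0.76, -0.88 and -0.74 (adjusted p = 0.000254, 5e-05, 1.6e-05 and 8.45e-05). These sizes depended on the scaling. With quantile normalization they were -0.05, -0.29, -0.44 and -0.24, and the first had an adjusted p of 0.618. The Pmp22 probe ranked between 3 and 28 by intensity on the nerve arrays.

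**Figure D2:**
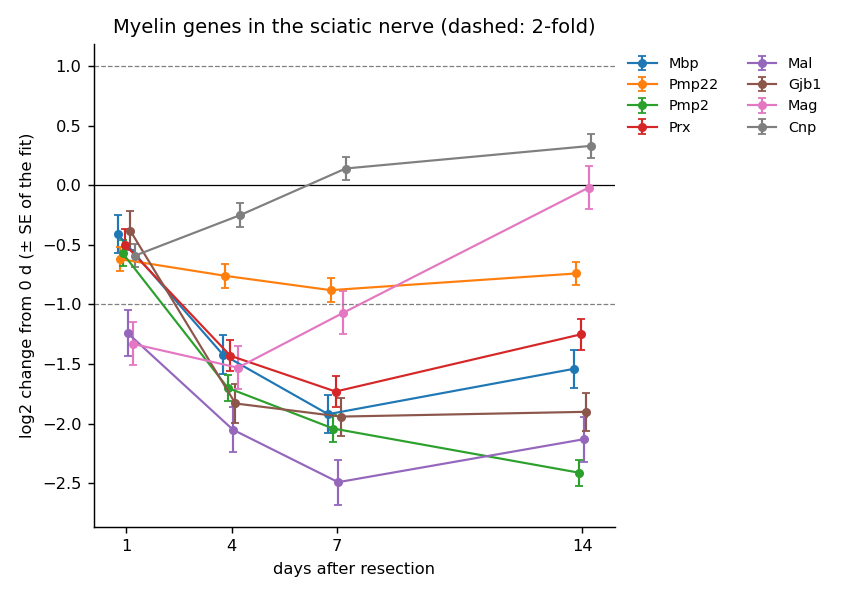
Log2 change from 0 d (y axis, points with the standard error of the fit) of the 8 genes in the sciatic nerve against days after resection (x axis, points shifted sideways to keep them apart). Mal, Pmp2, Mbp, Gjb1 and Prx lay below the lower 2-fold line from 4 d on, Mag returned to 0 by 14 d, and Pmp22 and Cnp stayed inside the lines.

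The steps between consecutive days show when each gene moved after 1 d. Their sizes do not use the 0 d arrays, but their standard errors and p-values do, through the shared estimate of spread. Between 1 and 4 d, Gjb1 fell by 1.45, Pmp2 by 1.13 and Mbp by 1.01 (log2), 3 of 8 genes where 5.13% of all probes were called lower. The Mbp step was just past 2-fold and was lost without 1 d replicate 2 (-0.88), without 4 d replicate 2 (-0.97) or 3 (-0.98) and with normexp background correction (-1.0). Between these days Prx differed by -0.93 (adjusted p = 0.000315) and Mag by -0.2 (adjusted p = 0.406).

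Between 4 and 7 d limma called 0 of the 8 genes lower, beside 1.27% of all probes, and the methods' t-test also called 0. At an unadjusted p under 0.05, with no limit on fold, 6 of the 8 genes differed, among them Mbp (-0.5), Pmp2 (-0.34) and Cnp (0.39).

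Between 7 and 14 d Mag rose 2.07-fold (1.05 ± 0.18, adjusted p = 0.00511), the only one of the 8 genes called higher, beside 0.91% of all probes. All 3 nerves of 14 d, at 2.67, 3.05 and 2.60, were above those of 7 d. The 14 d nerves were scanned on another day than the 7 d nerves, so scan day and time cannot be told apart in this step. The call was lost without 7 d replicate 2 (0.99) or 14 d replicate 2 (0.92), which brought it under 2-fold with adjusted p of 0.0268 and 0.0248, and with the methods' t-test after adjustment (adjusted p = 0.066). Prx was 0.47 ± 0.13 higher over the same step (adjusted p = 0.0411), and Mbp 0.38 ± 0.16 (adjusted p = 0.143).

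**Figure D3:**
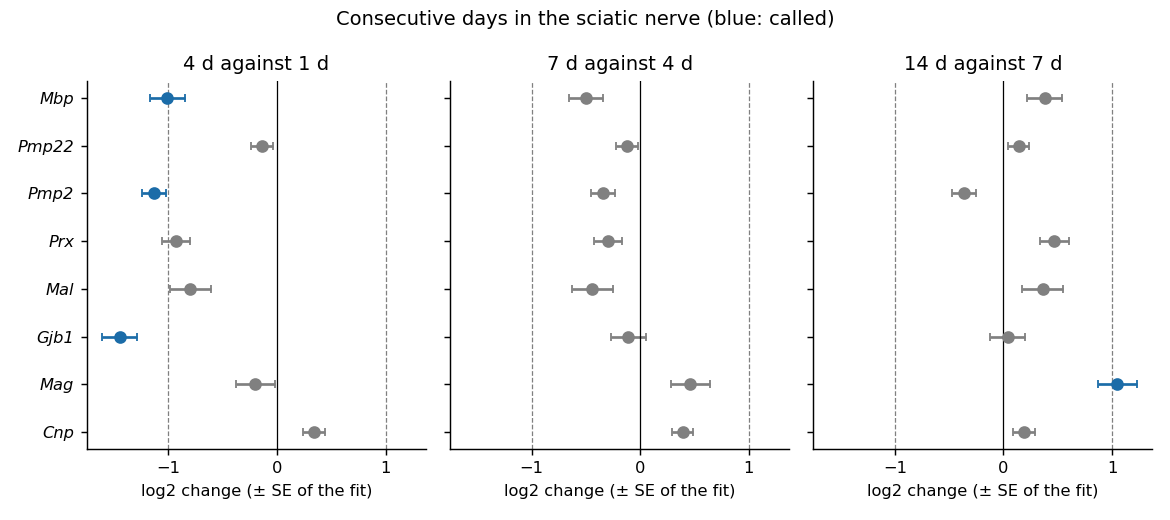
Log2 change between consecutive days in the sciatic nerve (x axis, with the standard error of the fit) for the 8 genes (y axis); blue points were called, grey points were not, and dashed lines mark 2-fold. Gjb1, Pmp2 and Mbp fell from 1 to 4 d, and Mag rose from 7 to 14 d.

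In the dorsal root ganglia, where the cell bodies of the cut axons lie with their own Schwann cells and satellite glia, fewer of the genes passed 2-fold. The share of 34968 probes called lower was 0.169%, 0.506%, 0.326% and 0.46% at 1, 4, 7 and 14 d, and the members called were 0, 1, 2 and 1. That was 59, 177, 114 and 161 probes, against 251, 401, 311 and 909 with quantile normalization. The median change of the 8 genes was -0.23, -0.54, -0.6 and -0.54 (log2) on these days, while the median over all probes was 0.09, 0.14, 0.08 and 0.13. At 1 d, 1 gene had an unadjusted p under 0.05, Mag at -0.51 (adjusted p = 0.051), and the methods' t-test called 0. Again the 4 comparisons shared the 0 d arrays. The 0 d ganglia were scanned on another day than all later ones, and no slide held ganglia of more than 1 time point. Slide, scan day and time cannot be told apart in these changes either.

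Pmp2 was the gene called at 4, 7 and 14 d. Its ganglion signals were 6.38, 6.17 and 5.64 on day 0, 5.68, 6.03 and 5.77 on day 1, 5.0, 4.78 and 5.4 on day 4, 4.94, 4.71 and 4.83 on day 7 and 4.43, 4.48 and 4.48 on day 14. From 4 d on no array reached the controls. The change was -1.6 ± 0.19 at 14 d (3.02-fold lower, adjusted p = 7.96e-05). The 4 d call lay on the 2-fold line (-1.0, adjusted p = 0.00257) and was lost without any of 4 arrays (0 d replicates 1 and 2, 4 d replicates 1 and 2).

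Mbp was called in the ganglia at 7 d with a change of -1.02 ± 0.21 (adjusted p = 0.00486), from 4.66, 4.76 and 4.09 on day 0 to 3.49, 3.4 and 3.58. The groups did not overlap, but the second probe gave -0.85 and was not called, and the call was also lost without 0 d replicate 1 (-0.94) or 2 (-0.89), without 7 d replicate 2 (-0.97) and with normexp (-0.93). At 14 d Mbp differed by -0.96 (adjusted p = 0.00383). Mag in the ganglia stayed at 0.41, 0.63 and 0.45 on day 14, below its controls of 1.29, 1.07 and 0.71. Within 2-fold, Mal differed by -0.65 at 7 d and -0.69 at 14 d (adjusted p = 0.0209 and 0.00921). Prx differed by -0.56, -0.55 and -0.56 at 4, 7 and 14 d (adjusted p = 0.0341, 0.0436 and 0.0278). Cnp differed by no more than 0.23 and Pmp22 by no more than 0.22 from 0 d on any day.

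Whether the nerve changed more than the ganglia was tested as the change in nerve minus that in ganglia, called at an adjusted p under 0.05 alone. Of 33796 probes, 35.6%, 45.3%, 38.1% and 32.3% were called at 1, 4, 7 and 14 d in either direction, beside 3, 6, 6 and 5 of the 8 genes. The change of Mal was lower in the nerve than in the ganglia by 1.01, 1.69, 1.84 and 1.44 (log2), with adjusted p of 0.00528, 2.37e-05, 9.04e-06 and 0.000216. For Gjb1 the differences at 4, 7 and 14 d were -1.31, -1.57 and -1.62. Mag differed at 1 d (-0.82, adjusted p = 0.0139) and 4 d (-0.88, adjusted p = 0.00687), and at 14 d its difference was 0.51 (adjusted p = 0.128). Without 0 d nerve replicate 2 these became -0.65 at 1 d (adjusted p = 0.0507) and 0.68 on day 14 (adjusted p = 0.0433). For Cnp no difference passed the threshold, the largest being 0.46 ± 0.19 at 14 d (adjusted p = 0.0624).

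The count of such genes depended on the scaling. With quantile normalization 2, 3, 3 and 3 genes were called: Mal on all 4 days, Mag at 1 and 4 d, Gjb1 at 4, 7 and 14 d, Prx at 7 d and Cnp at 14 d (0.6, adjusted p = 0.0251). The differences of Pmp2 and Pmp22 were not called there, with -0.29 for each at 7 d, and at 1 d they turned to 0.21 and 0.01. With slide as a fixed block, which compares nerve and ganglion arrays of 1 slide, 0, 3, 4 and 3 genes were called. Single arrays also decided some of the calls. Pmp22 at 1 d was lost without ganglion replicate 2 of that day (-0.4), Pmp2 at 4 d without ganglion replicate 3 of 0 d (-0.49) or of 4 d (-0.53), and Prx at 14 d without any of 5 arrays (-0.53 to -0.66).

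**Figure D4:**
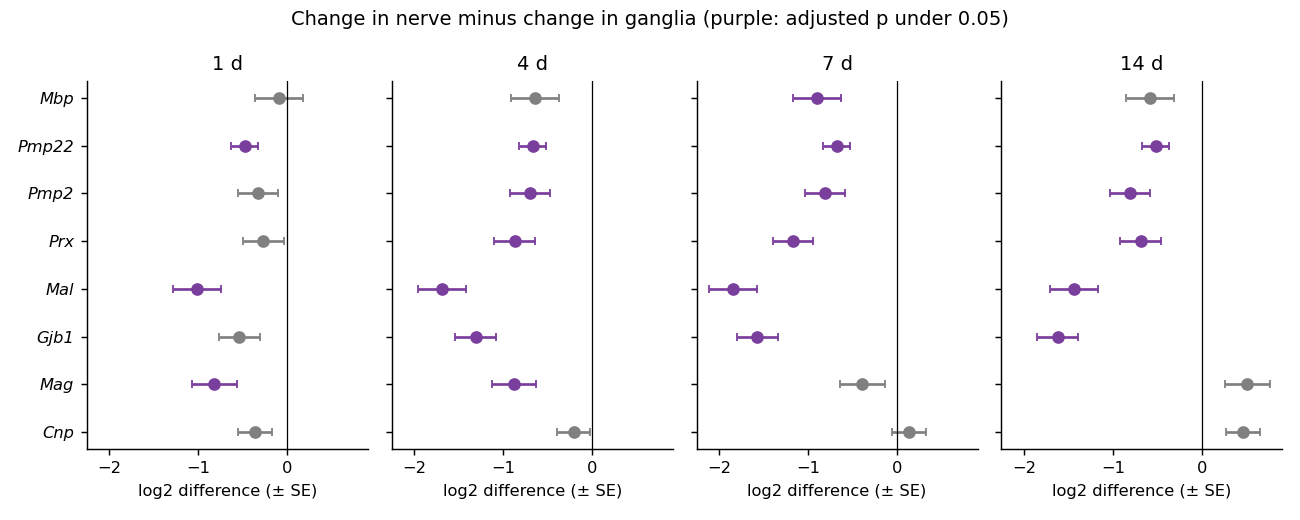
Change in nerve minus change in ganglia (log2, x axis, with the standard error of the fit) of the 8 genes (y axis) at 1, 4, 7 and 14 d; purple points had an adjusted p under 0.05. Mal lay furthest or next to furthest below 0 on each day, and Mag and Cnp lay above 0 at 14 d without passing the threshold.

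Markers of several cell types moved with the injury. The 8 macrophage markers summed to 21.4 to 24.1 at 0 d, 94.7 to 121 at 4 d and 47.0 to 62.7 at 14 d, and the 5 proliferation genes to 7.25 to 11.3, 41.7 to 45.6 and 24.6 to 29.4 on the same days. The 6 fibroblast markers went from 1399.8 to 1489 at 0 d to 826 to 976 at 4 d. None of these 6 was called at 4 d, beside 6.78% of all probes lower and 15.9% higher, nor at 1, 7 or 14 d. The 4 perineurial markers summed to 230 to 274 at 0 d, 86.3 to 104 at 7 d and 141 to 160 at 14 d. Of 5 adipocyte markers tested in the nerve, 0, 3, 2 and 3 were called lower at 1, 4, 7 and 14 d and none higher. Of all probes, 3.43%, 6.78%, 6.81% and 5.46% were called lower on these days. Of the 8 oligodendrocyte markers, Mag itself among them, 7 were tested in the nerve. At 7 d 3 of them were higher and 3 lower, beside 18.1% and 6.81% of all probes. Klk6 was not detected on all 3 arrays at any time in the nerve, nor Opalin in any injured group. The 6 T cell markers summed to 1.28 to 1.54 at 0 d and 7.4 to 9.13 at 7 d in the nerve. All 6 were called higher there at 4, 7 and 14 d, beside 15.9%, 18.1% and 14.3% of all probes. In the ganglia the macrophage markers went from 6.56 to 10.9 at 0 d to 20.5 to 23.1 at 7 d. There 5 of 8 were called higher, beside 2302 of all 34968 probes. In the ganglia the 12 sensory neuron markers summed to 707 to 725 at 0 d and 606 to 653 at 14 d, against 3.65 to 4.18 in the nerve at 14 d. Their part in the changes of the myelin genes was not tested.

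Among the other myelin sheath genes, 13 of 25 were lower and 1 was higher in the nerve at 7 d, with a median change of -1.06. By day, 6, 14, 13 and 12 were lower at 1, 4, 7 and 14 d, beside 3.43%, 6.78%, 6.81% and 5.46% of all probes. Dusp15, a phosphatase of myelinating glia, was 5.27-fold lower at 7 d (-2.4 ± 0.16), the tetraspanin Cd9 4.33-fold lower (-2.12 ± 0.14), and Drp2, the dystrophin-related partner of periaxin, 3.64-fold lower (-1.86 ± 0.18). Cntn1, an axonal and glial adhesion protein, was 5.44-fold higher (2.44 ± 0.43, adjusted p = 0.000348). Its probe was dim in the nerve, with a mean signal of -5.31 (standard deviation 0.46) at 0 d and -2.86 at 7 d. In the ganglia at 7 d these 4 differed by between -0.36 and -0.12 and none was called.

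Genes that supply the lipids of myelin were lower as well. Of 22 cholesterol synthesis genes, 3, 21, 20 and 20 were lower at 1, 4, 7 and 14 d, beside 3.43%, 6.78%, 6.81% and 5.46% of all probes. None was higher by limma, by the methods' t-test or at an unadjusted p under 0.05. The medians were -0.75, -1.9, -1.98 and -1.82, beside 0.11, 0.15, 0.15 and 0.16 over all probes. Tm7sf2, a sterol reductase, was 7.96-fold lower at 7 d, Hmgcs1, which makes the HMG-CoA of the pathway, 6.95-fold, Sc5d, a sterol desaturase, 5.96-fold, and Idi1, an isomerase of the isoprenoid step, 5.82-fold. In the ganglia at 7 d these 4 were between -0.41 and -0.2 and none was called.

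Of 15 genes for other myelin lipids, 4, 9, 9 and 9 were lower on these days, beside 3.43%, 6.78%, 6.81% and 5.46% of all probes. Scd, a desaturase of fatty acids, was 15.5-fold lower at 7 d (-3.95 ± 0.41), the elongase Elovl6 8.21-fold (-3.04 ± 0.13), Ugt8, which makes galactosylceramide, 6.37-fold (-2.67 ± 0.2), and Fa2h, which hydroxylates its fatty acids, 5.32-fold (-2.41 ± 0.21). The Scd signals of the 0 d nerves had a standard deviation of 0.92 (log2), against 0.095 to 0.31 for Elovl6, Ugt8 and Fa2h. In the ganglia Fa2h fell 2.46-fold by 4 d (adjusted p = 0.00209) and was 2.29-fold lower at 14 d (adjusted p = 0.00205), while at 7 d it differed by -0.83 and Ugt8 by -0.84 without being called. Of 11 further genes of demyelinating neuropathy, 1, 1, 3 and 2 were lower, beside 3.43%, 6.78%, 6.81% and 5.46% of all probes. Their median changes were -0.08, -0.71, -0.63 and -0.48. The 3 called at 7 d were Ndrg1 (3.0-fold), Fig4 (2.41-fold) and Arhgef10 (2.21-fold).

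Few of the regulators of myelination were called. Of 12 transcription factors that promote myelination, limma called none lower in the nerve on any day, and 0, 0, 1 and 2 higher, beside the 18.6%, 15.9%, 18.1% and 14.3% of all probes called higher. The methods' t-test also called none lower and 0, 0, 1 and 1 higher, and at an unadjusted p under 0.05 with no limit on fold 3, 5, 2 and 3 were lower and 3, 4, 6 and 7 higher. Pou3f1, a factor of the promyelinating stage that is also described as a negative regulator of later myelination, rose 3.65-fold by 7 d and 4.89-fold by the last day (2.29 ± 0.1, adjusted p = 2.4e-08). With quantile normalization 1 of the 12 was lower at 7 d. Of 13 genes that hold myelination back or mark immature Schwann cells, 2, 2, 4 and 5 were higher on these days and 0, 2, 0 and 0 lower, beside 18.6%, 15.9%, 18.1% and 14.3% of all probes called higher. By the methods' t-test 2, 2, 3 and 3 were higher. Ngfr, the low-affinity neurotrophin receptor of immature Schwann cells, rose 3.77-fold by 1 d and 11.9-fold by 7 d (3.58 ± 0.11, adjusted p = 1.19e-09). Sox2, a factor of immature Schwann cells, was 2.62-fold and Ncam1, an adhesion molecule, 2.44-fold higher at 7 d, the second of which was not called with normexp (0.9). Egr1, an immediate early gene, was 2.09-fold higher at 7 d, a call lost with the methods' t-test (adjusted p = 0.106), without 0 d replicate 1 (0.92) or 3 (0.81) and without 7 d replicate 3 (0.97).

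**Figure D5:**
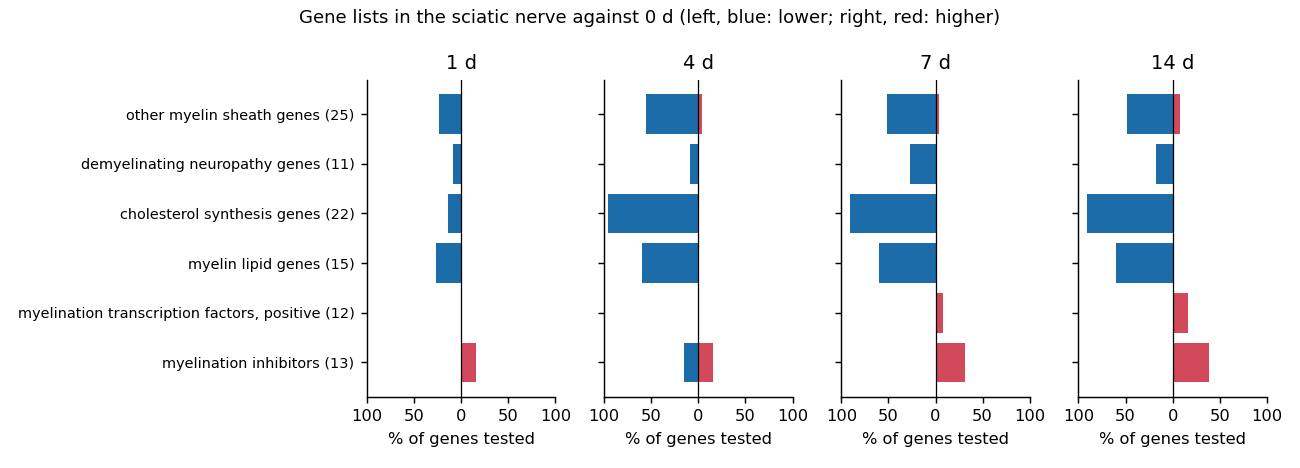
Share of the genes of each list (y axis, number tested in parentheses) called lower (blue, left) or higher (red, right) than 0 d in the sciatic nerve, in percent of the genes tested (x axis). From 4 d on, 20 or 21 of 22 cholesterol synthesis genes were lower, beside 5.46% to 6.81% of all probes. No transcription factor that promotes myelination was lower (1 at 7 d with quantile normalization).

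The genes whose pattern over the 15 nerve arrays was most like the mean of the 8 members were Zfp180 (Pearson r = 0.994), Rimklb (0.993), Tlcd1 and Sfrp5 (0.992 each), Abhd1 (0.991) and Fut8 (0.989), out of 11809 genes detected on all of these arrays. Zfp180 encodes a zinc finger protein, Sfrp5 a secreted Wnt antagonist and Fut8 a fucosyltransferase. They were -1.68, -1.88, -2.03, -2.17, -2.08 and -1.62 on day 7 in the same order. Of the members themselves, Mal (0.987) and Prx (0.979) were closest to that mean, Mag (0.497) and Cnp (-0.169) furthest. Each member is part of that mean, which raises its r, so these values cannot be set against those of the other genes. The points share arrays and fall into 5 time points, so r describes these arrays only.

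The 250 bases upstream of the annotated start are shown for the same 4 genes, from RefSeq on build GRCr8, with letters of 3 short motifs in capitals: ACAAAG and ACAATG, read by SOX-type factors, and GTGGGNG, which takes in the core GTGGGCG read by EGR-type factors, each on either strand. Of the 33469 windows of this length, 16.3%, 11.1% and 25.6% hold these letters. The windows are at chr1:91914171-91914420 on the plus strand (Prx), chrX:70541595-70541844 on the plus strand (Gjb1), chr1:95291045-95291294 on the minus strand (Mag) and chr10:86011254-86011503 on the plus strand (Cnp).
Prx upstream window: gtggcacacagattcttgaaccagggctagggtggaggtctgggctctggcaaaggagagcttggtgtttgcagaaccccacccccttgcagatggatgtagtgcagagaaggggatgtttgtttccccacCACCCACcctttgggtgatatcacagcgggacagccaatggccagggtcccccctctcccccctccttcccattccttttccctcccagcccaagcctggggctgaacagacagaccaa
Gjb1 upstream window: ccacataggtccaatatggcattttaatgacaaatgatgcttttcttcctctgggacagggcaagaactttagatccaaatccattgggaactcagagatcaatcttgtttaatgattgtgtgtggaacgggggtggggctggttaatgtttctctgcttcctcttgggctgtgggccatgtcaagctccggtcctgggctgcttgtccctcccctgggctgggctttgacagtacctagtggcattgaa
Mag upstream window: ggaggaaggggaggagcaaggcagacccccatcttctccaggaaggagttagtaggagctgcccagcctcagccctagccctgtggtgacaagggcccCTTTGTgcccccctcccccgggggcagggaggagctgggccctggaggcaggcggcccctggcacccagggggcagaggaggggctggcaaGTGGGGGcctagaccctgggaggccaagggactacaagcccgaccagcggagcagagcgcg
Cnp upstream window: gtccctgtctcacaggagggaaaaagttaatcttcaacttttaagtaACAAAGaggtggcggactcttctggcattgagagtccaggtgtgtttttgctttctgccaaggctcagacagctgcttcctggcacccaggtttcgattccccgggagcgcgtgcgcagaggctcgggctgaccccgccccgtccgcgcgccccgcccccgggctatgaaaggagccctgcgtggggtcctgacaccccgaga
Mag holds ACAAAG once, on the other strand, and GTGGGNG once. Prx holds GTGGGNG once on the other strand, Cnp holds ACAAAG once, and the Gjb1 window holds none of the 3. The windows of Mal and Pmp22 were searched as well and hold none of the 3. The core GTGGGCG itself is in none of the windows searched, as the letters found were GTGGGGG in Mag and CACCCAC in Prx. A match is a run of letters and not a measured binding site.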

How the data were processed

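RNA was measured on 30 one-colour Agilent rat arrays. The deposited intensity values were read by the authors from the scanned arrays with Agilent Feature Extraction, which subtracted background and detrended each array, with probe coordinates on rn4. The authors' deposited log2 values have 1 distribution on every array. The raw mean and local background intensity were also deposited. Here outlier spots were left out, spots of 1 probe were averaged on the log2 scale, and each array's 75th percentile was subtracted. The test took the probes that Feature Extraction called well above background on each of the 3 arrays of some day in the tissue and was run with limma 3.58.1 (R 4.3.3), the arrays of a tissue, or all 30 for comparisons between tissues, sharing 1 estimate of spread, and p-values were adjusted by Benjamini-Hochberg over all tested probes. The number of arrays limits the precision.

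The members and gene lists were chosen with earlier results of these data known. For Mbp the probe brightest over all arrays is the main one. From each list, up to 4 genes were named: those called in the nerve at 7 d with the largest change and detected at 0 and 7 d. The 6 genes most like the members were the highest in Pearson r. Of 17504 accessions on the array 13088 were found in the RefSeq gene table, whose promoter windows were also used. Alternatives were quantile and normexp normalization (offset 50), the percentile over detected probes, the authors' values, filters on dim probes, the arrays in the fit, the methods' t-test, blocks for replicate, slide and scan, the second Mbp probe and leaving out each array. The Schwann cell marker list is not reported here.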

Additional observations from a re-analysis of the deposited data

Results flagged for a closer look

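The difference between tissues passed the threshold of the limma interaction (adjusted p under 0.05) for the following genes, each given as the log2 change in nerve minus the log2 change in ganglia. At 1 d it was -0.48 for Pmp22, -1.01 for Mal and -0.82 for Mag. At 4 d it was -0.87 for Prx, -0.7 for Pmp2, -1.31 for Gjb1, -0.67 for Pmp22, -1.69 for Mal and -0.88 for Mag. At 7 d it was -1.17 for Prx, -0.9 for Mbp, -0.81 for Pmp2, -1.57 for Gjb1, -0.68 for Pmp22 and -1.84 for Mal. At 14 d it was -0.69 for Prx, -0.81 for Pmp2, -1.62 for Gjb1, -0.52 for Pmp22 and -1.44 for Mal. Every one of these 20 differences was negative, that is, the change was lower in the nerve than in the ganglia, not the signal. Mal at 7 d, for example, had a mean of 2.85 in the nerve and 2.06 in the ganglia. Of all probes called, 6664, 8516, 6914 and 6547 were negative and 5373, 6790, 5955 and 4353 positive at 1, 4, 7 and 14 d. Fewer of the genes were called with quantile normalization, and the 0 d arrays are shared by all 4 days.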

How the results depend on the processing

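Of 325 recomputed counts of member genes 294 stayed within 1.5 times, and 31 moved. Mag from 7 to 14 d was lost with the adjusted methods' t-test (0 genes higher), and leaving out single arrays gave 0 to 1. In the ganglia at 4 d the t-test and scan date as a random block gave 0 genes lower, and leaving out arrays 0 to 1. At 7 d normexp, the t-test and the second Mbp probe each gave 1, and leaving out arrays 1 to 2. At 14 d quantile normalization and the authors' values gave 2, and leaving out arrays 1 to 2. The genes that differed between tissues were 0 at 1 d with slide as a fixed block, 3 at 4 d and at 14 d with quantile normalization, normexp, the authors' values or slide as a fixed block, and 3 at 7 d with quantile normalization or the authors' values. Leaving out arrays gave 2 to 4, 5 to 7, 6 and 4 to 6 at 1, 4, 7 and 14 d for these differences. In the nerve it gave 2, 6, 5 to 6 and 5 genes lower, and 2 to 4 between 1 and 4 d.

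Of 2828 single-gene alternatives 2694 kept direction and call, 78 lost the call, 23 gained it and 33 changed sign. Mag in the nerve at 14 d was 0.12 with quantile normalization and in the authors' values, 0.09 with normexp, 0.06 with the percentile over detected probes and -0.15 to 0.15 without single arrays. Gjb1 from 7 to 14 d ranged from -0.11 to 0.14. In the ganglia, Gjb1 at 1 d was -0.05, -0.02 and -0.05 with quantile normalization, normexp and the authors' values, and Cnp ranged from -0.16 to 0.04 at 4 d and from -0.07 to 0.07 at 7 d. Between tissues at 1 d, Mbp was 0.09 with quantile normalization and the authors' values and -0.22 to 0.12 without single arrays, Pmp22 was 0.01, 0.09 and 0.02 and Pmp2 0.21 under each of the 3 scalings, and Pmp2 0.13 with slide as a fixed block. With normexp Pmp22 was 0.07 at 4 d and Pmp2 0.01 at 14 d, and with slide as a fixed block Mag was 0.08 at 7 d. The causes were not tested.

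With the replicate number as a block the counts were identical, for example 6 genes lower at 7 d in the nerve. The numbers were not shown to pair the arrays, since deviations of same-numbered arrays in 1 tissue correlated at -0.358 to 0.34. Scan date as a fixed block could not be fitted for the nerve or the ganglia against 0 d, where each side had its own scan dates. The t-test was not run for the change in nerve minus that in ganglia. With 3 arrays a group, the precision is limited by their number.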
